A study of Homo sapiens with 6 samples.

Results

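Replication-dependent and linker histone genes were examined in L428, an established Hodgkin lymphoma cell line, after the microRNA miR-9 had been blocked. The genes were all those whose single platform symbol begins as a linker (H1), H2A, H2B, H3 or H4 gene of the histone clusters, and each was read by its brightest probe set over the 6 arrays. This gave 50 of 19775 genes: 9 linker, 8 H2A, 14 H2B, 7 H3 and 8 H4 genes, 3 histone pseudogenes, and 1 antisense RNA of a linker gene, H1-10-AS1, which matches the name pattern but encodes no histone. Both groups were L428 cells transfected by nucleofection, 3 samples with an LNA (locked nucleic acid) inhibitor of miR-9 and 3 with a scrambled LNA, and total RNA was taken 9 h later for Affymetrix HG-U133 Plus 2.0 arrays. L428 is 1 line, so nothing here speaks for other Hodgkin cells. Replicates are numbered in the labels, but no label says that each came from its own culture, so a p-value here covers only the spread between these samples, which may be technical.

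Nucleosomes wrap DNA around an octamer of the core histones H2A, H2B, H3 and H4, and a linker histone H1 closes the turn. The replication-dependent genes are transcribed together in S phase, and their mRNAs end in a stem-loop bound by SLBP in place of a poly(A) tail. A few genes of the same clusters also make polyadenylated mRNA, among them H2BC12, H2BC5, H2BC21, H2AC6 and H1-2, and the replacement linker gene H1-10 does so outside S phase. The labels do not state whether cDNA was primed on poly(A). If it was, mRNAs without a tail would be read poorly, and a lack of difference here need not hold for them. Members of a class differ by few bases, so a probe set whose ID ends in _s_at or _x_at can read several of them.

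The microRNA that was blocked is shown first, with its seed (bases 2 to 8) in capitals. RefSeq (GRCh38.p14) places its 3 loci, MIR9-1, MIR9-2 and MIR9-3, on chromosomes 1, 5 and 15, and the labels do not say which arm the inhibitor matches.
hsa-miR-9-5p: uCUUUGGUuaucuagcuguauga
hsa-miR-9-3p: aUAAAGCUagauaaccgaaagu

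The promoters of 5 members that the results turn on follow, as the 140 bases before the RefSeq start on the gene's own strand (GRCh38.p14). H2BC12 and H1-2 had the largest higher differences among the tested histone genes, and H1-10 the lowest p in the lower direction. H2AC6 and H2AC25 leaned in opposite directions between replicate numbers, neither passing the adjusted threshold on the deposited values. Capitals mark the octamer bound by Oct-1 (ATTTGCAT), the box read by NF-Y (CCAAT), the TATA box (TATAAA) and the box of linker histone promoters (AAACACA), each searched on both strands. They lie at chr6:27146859-27146998 (minus strand), chr6:26056471-26056610 (minus), chr3:129316287-129316426 (minus), chr6:26124032-26124171 (plus) and chr1:228457874-228458013 (minus), in the order printed.
H2BC12: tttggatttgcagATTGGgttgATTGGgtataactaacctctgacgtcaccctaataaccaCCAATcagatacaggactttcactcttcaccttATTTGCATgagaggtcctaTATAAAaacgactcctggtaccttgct
H1-2: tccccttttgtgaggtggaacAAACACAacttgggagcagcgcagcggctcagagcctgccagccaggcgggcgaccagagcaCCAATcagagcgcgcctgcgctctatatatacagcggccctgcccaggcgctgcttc
H1-10: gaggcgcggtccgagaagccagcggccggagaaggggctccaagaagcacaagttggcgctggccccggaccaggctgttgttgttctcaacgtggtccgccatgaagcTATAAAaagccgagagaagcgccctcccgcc
H2AC6: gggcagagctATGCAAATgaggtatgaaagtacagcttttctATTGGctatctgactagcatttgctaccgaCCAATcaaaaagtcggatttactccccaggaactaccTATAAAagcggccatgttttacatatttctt
H2AC25: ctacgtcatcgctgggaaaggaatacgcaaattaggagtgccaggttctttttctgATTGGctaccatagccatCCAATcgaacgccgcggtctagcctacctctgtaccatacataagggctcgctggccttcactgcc

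The promoters grouped by class. Over the 250 bases before the start, ATTTGCAT was found in 6 of 8 H2A and 10 of 13 H2B promoters and in none of the 9 H1, 6 H3 and 7 H4 promoters, against 1.66% of 27305 promoters in the table. AAACACA was found in 7 of 9 H1 promoters, H1-10 and H1-8 being the ones without it, in none of the core histone promoters, and in 4.95% of all. CCAAT was found in 37 of 43 members with an entry (33.0% of all promoters) and TATAAA in 28 of 43 (11.1% of all). The polyadenylated gene H2BC12 has the octamer 46 bases before its start and TATAAA 27 bases before it. In H2AC6 the octamer stands on the other strand 130 bases before the start. H1-10 has only TATAAA among these 4 motifs, 31 bases before its start, and H2AC25 has CCAAT on both strands without an octamer. A match describes letters in this window and no binding.

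No histone gene passed the threshold of an adjusted p under 0.05 with the miR-9 LNA, where 0% of the 27307 tested probe sets passed. Levels are deposited log2 values, and a positive difference means more signal after miR-9 was blocked. Errors of means are SDs over the 3 arrays of a group. Errors of differences are standard errors from limma, whose eBayes step draws them towards the spread of all probe sets in the fit. Of the 50 genes, 24 had their brightest probe set at or above the level filter (7.11, the median of all non-control probe sets) and were tested. Of these, 12 had a positive and 12 a negative difference, with a median difference of 0.003, while 70.0% of the 12367 tested genes were higher, with a median of 0.08. After quantile normalization 8 of the 24 were higher (median -0.04), and after centring each array on its median 16 were. The lowest limma adjusted p among the 24 was 0.434, at H1-10.

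At an unadjusted p under 0.05 limma gave 0 histone genes higher and 0 lower, beside 13.8% of tested probe sets higher and 0.626% lower. That imbalance was not there after quantile normalization, when 2.38% were higher and 2.17% lower. By that scaling 0 histone genes were higher and 2 lower, H1-10 and H2BC5, each at a limma adjusted p of 0.9. The second probe set of H2BC5 then differed by -0.0006. Without scrambled replicate 1, 2741 probe sets were higher and 856 lower. The 3 arrays of each group did not overlap for 0 genes in the higher direction, beside 18.1% of tested probe sets, and for 2 in the lower direction, beside 3.97%. Those 2 were H1-1 and H3C2, both just above the level filter. H1-1, a linker gene, was at 7.12, 7.10 and 7.09 on miR-9 LNA replicates 1, 2 and 3 and at 7.13, 7.15 and 7.14 on the scrambled ones. Its difference of -0.04 ± 0.05 was smaller than its limma standard error. That error is drawn towards the spread of all tested probe sets, and the SDs of H1-1 were only 0.02 and 0.01.

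**Figure D1:**
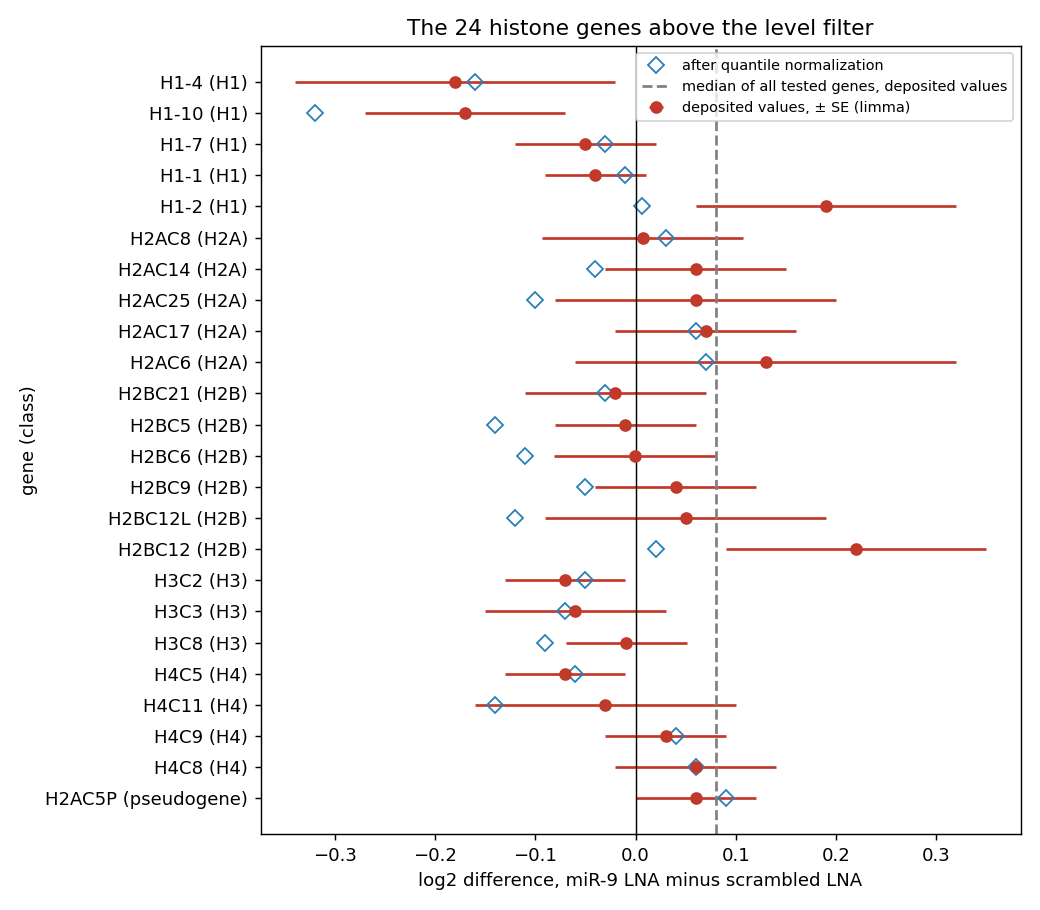
Log2 difference (miR-9 LNA minus scrambled LNA, x axis) of each of the 24 tested histone genes (y axis, with class). Filled points with bars are deposited values ± SE from limma, open diamonds are the same after quantile normalization, and the dashed line is the median of all tested genes (0.08). The points spread on both sides of 0, from -0.18 at H1-4 to 0.22 at H2BC12.

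Among linker histones, H1-2 had the largest positive difference and H1-10 the lowest p, and neither passed the test. H1-2, a main somatic linker histone, was at 10.27, 9.79 and 10.14 with the miR-9 LNA and at 9.81, 9.79 and 10.04 with the scrambled LNA. The groups overlapped, since scrambled replicates 1 and 3 stood above miR-9 LNA replicate 2. The difference was 0.19 ± 0.13 (limma adjusted p = 0.516), and 0.006 after quantile normalization. The deposited difference was positive in 3 of 3 same-numbered pairs, though in replicate 2 by less than the printed digits. It ranged from 0.09 to 0.33 as each array was left out, being smallest without miR-9 LNA replicate 1 and largest without miR-9 LNA replicate 2.

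H1-10 was at 9.35, 9.08 and 9.35 with the miR-9 LNA and at 9.52, 9.31 and 9.47 with the scrambled LNA. Only scrambled replicate 2 fell among the miR-9 LNA arrays, and replicate 2 was the lowest array of each group. The difference was -0.17 ± 0.10 (limma adjusted p = 0.434), and 0 of 3 pairs were higher. With the replicate number as a block its limma adjusted p was 0.174. After quantile normalization the difference was -0.32, with a limma adjusted p of 0.9, or 0.461 with the replicate block added. Leaving out single arrays moved it from -0.23 to -0.08, the smallest without miR-9 LNA replicate 2.

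H1-4, another replication-dependent linker gene, was at 7.62, 7.10 and 7.25 with the miR-9 LNA and at 7.26, 7.74 and 7.49 with the scrambled LNA. Arrays of both groups were interleaved over the widest range of the tested linker genes, and the difference was -0.18 ± 0.16 (limma adjusted p = 0.613). It ranged from -0.33 without miR-9 LNA replicate 1 to -0.05 without scrambled replicate 2. H1-7, a testis linker histone, was at 7.11 ± 0.05 and 7.17 ± 0.10, a difference of -0.05 ± 0.07. Over the 5 tested linker genes 1 was higher and 4 lower.

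The 5 tested H2A genes all had a positive difference in the deposited values, by 0.007 to 0.13, but only 3 of 5 were after quantile normalization, and none differed by more than its standard error. H2AC6, which makes polyadenylated mRNA, was at 8.09, 8.08 and 8.51 with the miR-9 LNA and at 7.74, 8.13 and 8.42 with the scrambled LNA. Replicate 3 was the highest array in both groups, and the groups overlapped. The difference was 0.13 ± 0.19 (limma adjusted p = 0.755). It turned to -0.05 without scrambled replicate 1 and to -0.02 without miR-9 LNA replicate 3.

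H2AC25, an H2A gene on chromosome 1 outside the main cluster, was at 9.73, 9.37 and 9.29 with the miR-9 LNA and at 9.59, 9.42 and 9.20 with the scrambled LNA. Here replicate 1 was highest and replicate 3 lowest in both groups, whereas replicate 3 was highest for H2AC6. The difference between the groups was 0.06 ± 0.14, and its second, dimmer probe set gave -0.05. H2AC14 was at 8.66, 8.42 and 8.39 against 8.51, 8.38 and 8.39, a difference of 0.06 ± 0.09 that was -0.04 after quantile normalization. H2AC17 was at 7.66 ± 0.16 and 7.59 ± 0.08, with miR-9 LNA replicate 1 (7.84) above the other arrays (7.50 to 7.65). H2AC8 differed by 0.007 ± 0.10.

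H2BC12 had the largest difference of any tested histone gene. It encodes an H2B and makes polyadenylated mRNA, and it was at 11.66, 11.30 and 11.63 with the miR-9 LNA and at 11.12, 11.30 and 11.54 with the scrambled LNA. Scrambled replicate 3 stood above miR-9 LNA replicate 2, so the groups overlapped, and scrambled replicate 1 was lowest. The difference was 0.22 ± 0.13 (limma adjusted p = 0.469), higher in 3 of 3 pairs, though in replicate 2 by less than the printed digits. After quantile normalization it was 0.02, and it ranged from 0.11 without scrambled replicate 1 to 0.33 without miR-9 LNA replicate 2.

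The other H2B genes lay within 0.05 of no difference in the deposited values. After quantile normalization H2BC5 was at -0.14 and H2BC12L at -0.12 (limma adjusted p = 0.9 and 0.907), and H2BC6 was at -0.11. H2BC12L, a close relative of H2BC12 outside the main cluster, was at 9.79, 9.87 and 10.15 with the miR-9 LNA and at 9.68, 9.81 and 10.17 with the scrambled LNA. Replicate 3 was highest and replicate 1 lowest in both groups, and the LNAs gave a difference of 0.05 ± 0.14. H2BC5 was at 8.81, 8.85 and 8.91 against 8.79, 8.85 and 8.96, a difference of -0.01 ± 0.07. Its second probe set gave 0.10, so the probe sets of H2BC5 differed in sign. After quantile normalization that second probe set gave -0.0006. H2BC21, at 7.33, 7.54 and 7.40 against 7.60, 7.38 and 7.35, differed by -0.02 ± 0.09. H2BC9 was at 8.39 ± 0.09 and 8.34 ± 0.11, a difference of 0.04 ± 0.08 that was -0.05 after quantile normalization, and H2BC6 differed by -0.001 ± 0.08.

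The 3 tested H3 genes all had a negative difference in the deposited values, by 0.009 to 0.07, and H3C8 turned to 0.02 when each array was centred on its median. H3C2 was at 7.12, 7.03 and 7.13 with the miR-9 LNA and at 7.15, 7.15 and 7.20 with the scrambled LNA. These arrays did not overlap, which a two-sided exact permutation test gives p = 0.1, the smallest it can give for 3 against 3. The difference was -0.07 ± 0.06 (limma adjusted p = 0.575). H3C3 was at 7.62, 7.42 and 7.33 against 7.61, 7.51 and 7.43, highest in replicate 1 of both groups, and differed by -0.06 ± 0.09. H3C8 was at 8.24, 8.11 and 8.23 against 8.25, 8.15 and 8.20, a difference of -0.009 ± 0.06.

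Of the 4 tested H4 genes 2 were higher and 2 lower. H4C5 was at 7.24, 7.28 and 7.30 with the miR-9 LNA and at 7.39, 7.34 and 7.30 with the scrambled LNA. The groups met at replicate 3, and their means differed by -0.07 ± 0.06 (limma adjusted p = 0.562). H4C8 was at 7.55 ± 0.11 and 7.50 ± 0.07, a difference of 0.06 ± 0.08, and its second probe set gave 0.08. H4C9 was at 7.42 ± 0.06 and 7.39 ± 0.03, a difference of 0.03 ± 0.06. H4C11, read by an _x_at probe set, was at 8.72, 8.18 and 8.44 with the miR-9 LNA and at 8.47, 8.49 and 8.47 with the scrambled LNA. The miR-9 LNA arrays of H4C11 straddled the scrambled ones, with an SD of 0.27 against 0.01, and the means differed by -0.03 ± 0.13. The pseudogene H2AC5P was at 7.23 ± 0.03 and 7.16 ± 0.06, a difference of 0.06 ± 0.06.

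**Figure D2:**
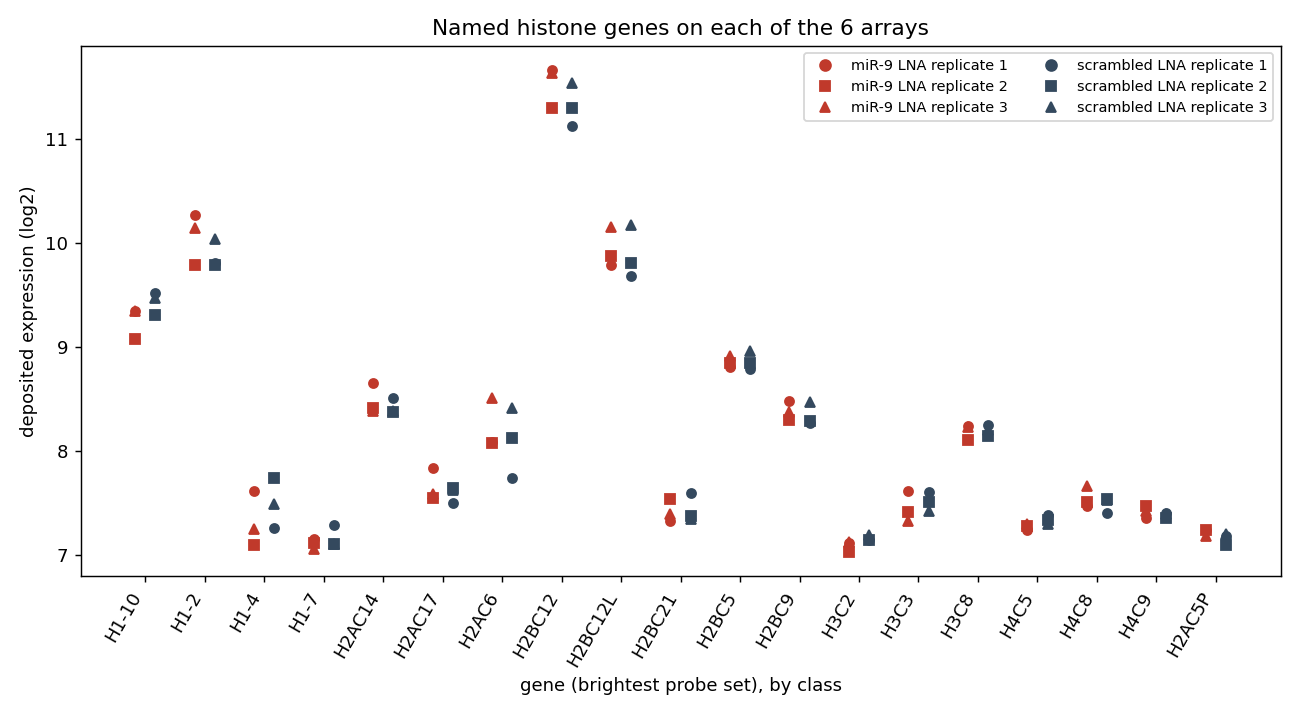
Deposited log2 expression (y axis) of the 19 named histone genes (x axis, ordered by class) on each array. Red symbols are miR-9 LNA arrays and dark symbols scrambled LNA arrays, and the symbol shape gives the replicate number. The colours overlap for every gene but H3C2, and for H2AC6 and H2BC12L the triangles of replicate 3 stand on top in both groups.

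Some histone probe sets list several genes and so name none. Of 78 histone probe sets, 20 listed several genes and 14 of those were tested. One of them listing 14 H4 genes was at 12.75, 11.80 and 12.33 with the miR-9 LNA and at 12.34, 12.45 and 12.41 with the scrambled LNA. As for H4C11, the highest and the lowest array were both miR-9 LNA arrays, replicates 1 and 2. The SDs were 0.47 and 0.05, and the difference was -0.11 ± 0.21 (limma adjusted p = 0.824). Both read H4 genes that are nearly identical, so they are not independent measures.

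An H2A probe set listing 2 genes was at 12.52, 11.57 and 12.24 against 11.98, 11.80 and 12.19, again with miR-9 LNA replicate 1 highest and replicate 2 lowest. Its difference was 0.12 ± 0.23 (limma adjusted p = 0.812). At an unadjusted p under 0.05, 1 of the 14 passed, beside the 13.8% of all tested probe sets that were higher by that rule. It was an H3 probe set listing 10 genes. This probe set was at 7.54, 7.55 and 7.45 with the miR-9 LNA and at 7.38, 7.38 and 7.33 with the scrambled LNA, without overlap. The difference was 0.15 ± 0.06 (limma adjusted p = 0.331) and 0.15 after quantile normalization. An H2B probe set listing 2 genes had a larger difference, 0.28 ± 0.13 (limma adjusted p = 0.363), with scrambled replicates 1 and 2 at 7.06 and 7.12 and the other 4 arrays between 7.48 and 7.57.

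**Figure D3:**
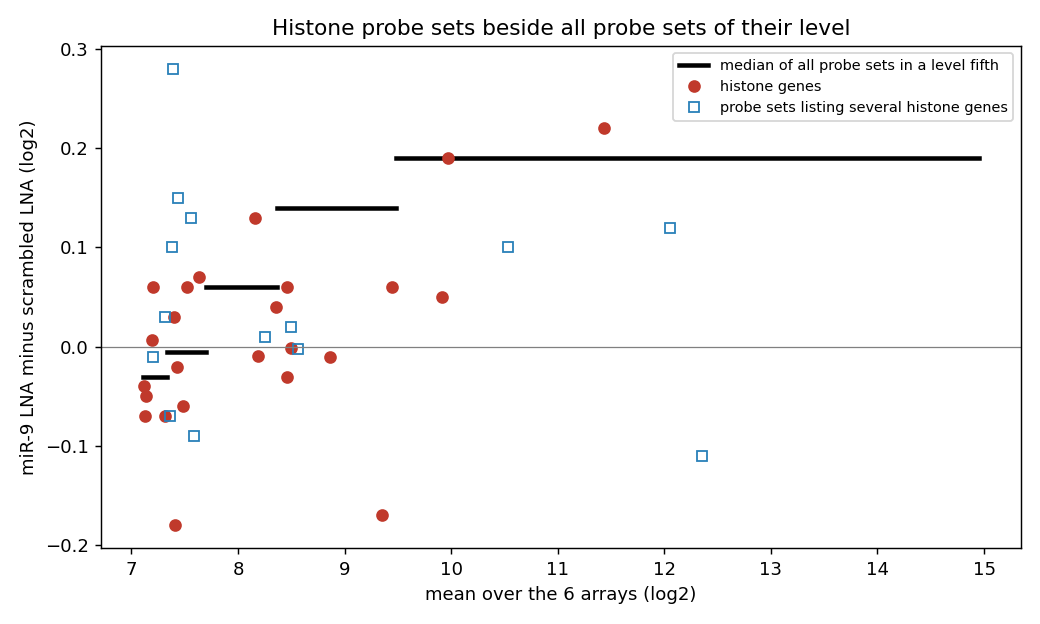
Log2 difference between the groups (y axis) against the mean over the 6 arrays (x axis, log2) for the 24 tested histone genes (filled) and the 14 tested probe sets listing several histone genes (open squares). Black bars are the medians of all tested probe sets in each of 5 equal bins by level, which climb from -0.03 to 0.19, while many histone points above a level of 8 lie near 0.

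Differences over all probe sets followed the level, and the histone genes are set beside probe sets of their level here. Tested probe sets were cut into 5 equal bins by level. In the bin from 8.37 to 9.48 the median of all 5461 probe sets was 0.14, and 2 of 6 histone genes were higher, with a median of -0.007. After quantile normalization these medians were 0.02 and -0.12. In the top bin the median of all was 0.19 and that of the 3 histone genes, H2BC12, H1-2 and H2BC12L, was also 0.19. In the dimmest bin the medians were -0.03 and -0.05, over 5462 probe sets and 6 histone genes. From 7.33 to 7.7 they were -0.005 for all and 0.005 for 6 histone genes. From 7.7 to 8.37 they were 0.06 for all and 0.04 for 3 histone genes. No test was made of these medians.

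For some histone genes the same replicate number was highest in both groups, as it was for a share of all tested probe sets. Deviations of same-numbered arrays from their group means correlated across all tested probe sets at 0.231, 0.193 and 0.634. Replicate 3 was the highest array of both groups for 6 of 24 histone genes, against 22.9% of all tested probe sets, and replicate 1 for 6 of 24, against 12.5%. After quantile normalization these were 5 of 24 against 18.0%, and 7 of 24 against 20.0%. The share of all probe sets for replicate 1 thus moved with the scaling. The histone share stayed above it on both scales, which was not tested. Replicate 2 was the highest of both groups for 0 of 24 in the deposited values, against 10.7%. It was the lowest of both groups for 4 of 24, against 9.35%, and after quantile normalization for 6 of 24, against 12.1%. The comparison of replicate 3 with replicate 1 was added after these values had been seen, in the limma fit with both the LNA and the replicate number.

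By that comparison 1 of the tested histone genes was called, beside 1.75% of tested probe sets called higher in replicate 3. H2BC12L was higher in replicate 3 by 0.43 ± 0.07 (limma adjusted p = 0.0491). It was higher by 0.36 between the miR-9 LNA arrays and by 0.49 between the scrambled arrays. H2AC6 was higher by 0.42 and 0.68, a difference of 0.55 ± 0.11 (limma adjusted p = 0.0656). H2AC25 was lower by 0.44 and 0.39 and differed by -0.42 ± 0.08 (limma adjusted p = 0.0602), where 0.22% of tested probe sets were called lower and 0 histone genes were. After quantile normalization H2BC12L (0.0456), H2AC6 (0.0337) and H2AC25 (0.0172) all passed, given as limma adjusted p, but so did more of all probe sets, 3.59% higher and 2.52% lower. The call rests on few arrays. The limma adjusted p of H2BC12L was 0.0876 without replicate 2 of either group, 0.368 without miR-9 LNA replicate 3 and 0.682 without scrambled replicate 3, but 3.8e-07 without miR-9 LNA replicate 1 and 0.000116 without scrambled replicate 1. Its value ranged from 0.38 to 0.47 over the arrays left out in turn, in fits with 1 residual degree of freedom.

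H3C3 and H2AC14 leaned the way of H2AC25, by -0.24 ± 0.07 and -0.20 ± 0.07 (limma adjusted p = 0.147 and 0.210). At an unadjusted p under 0.05 limma gave 2 of the 24 higher in replicate 3, beside 14.6% of tested probe sets, and 3 lower, beside 5.26%. The signal along 1 of 2 control transcripts moved with the replicate number: the 3' minus 5' difference of the ACTB control probe sets was 0.87 and 0.58 in replicate 1, 0.40 and 0.36 in replicate 2, and 0.22 and 0.24 in replicate 3, for the miR-9 LNA and the scrambled LNA in turn. That of GAPDH moved less, at 0.06 and 0.19 in replicate 1 and between -0.05 and 0.01 in replicates 2 and 3. The part of either in the histone levels was not tested.

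**Figure D4:**
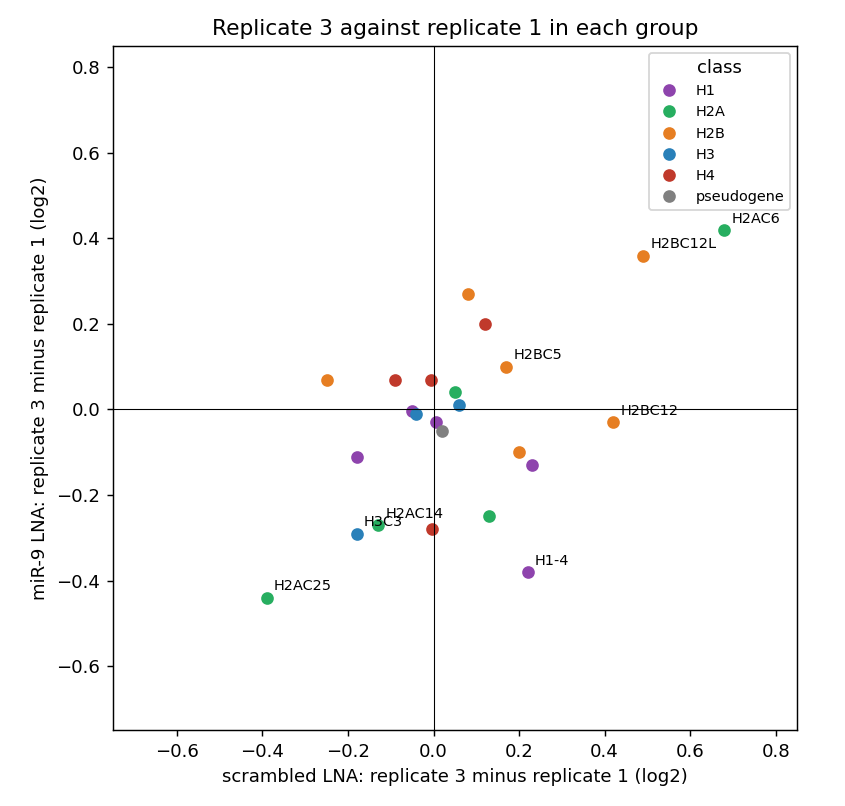
Replicate 3 minus replicate 1 (log2) in the scrambled LNA arrays (x axis) and in the miR-9 LNA arrays (y axis) for the 24 tested histone genes, coloured by class. H2BC12L and H2AC6 lie at the upper right and H2AC25 at the lower left, so these genes shifted alike in both groups, while H2BC12 and H1-4 shifted in one group only or in opposite ways.

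The other 26 genes lay below the level filter, with means from 6.47 to 7.10, where the array gives little contrast. Read from the same limma fit without the filter, 7 were higher and 19 lower, with a median of -0.05, beside -0.03 over all 27306 probe sets below the filter. Only H2BC14, an H2B gene, had an unadjusted limma p under 0.05, in the lower direction, beside 2.48% of the probe sets below the filter. It was at 6.97, 6.98 and 6.94 with the miR-9 LNA and at 7.09, 7.18 and 7.05 with the scrambled LNA, without overlap, a difference of -0.14 ± 0.05 (limma adjusted p = 0.417). H2BC3, with 6.88, 6.95 and 6.90 against 6.73, 6.83 and 6.85, was the only one whose groups did not overlap in the higher direction, a difference of 0.11 ± 0.05, beside 2.08% of probe sets below the filter. In the lower direction 5 of the 26 did not overlap, beside 10.1%: H1-3 (-0.13), H2AC16 (-0.09), H2BC14, H2BC15 (-0.12) and H3C1 (-0.10). Tested and dim genes together gave 1 of 50 higher and 7 lower without overlap, beside 10.1% and 7.05% of all 54613 probe sets. The antisense RNA H1-10-AS1, at 6.96 ± 0.04 and 6.90 ± 0.04, was among these dim genes. The others below the filter were the linker genes H1-3, H1-5, H1-6 and H1-8, H2AC4, H2AC15 and H2AC16, H2BC1, H2BC4, H2BC11, H2BC13, H2BC15 and H2BC17, H3C1, H3C6, H3C7 and H3C11, H4C1, H4C4, H4C7 and H4C13, and the pseudogenes H1-9P and H4C10P.

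The genes that make, process and load histones mostly had positive differences in the deposited values, and 0 passed the limma adjusted p threshold in any list. Beside these counts stand 70.0% of all tested genes higher and 13.8% of tested probe sets higher at an unadjusted limma p under 0.05. With the level filter at the 75th percentile, 2565 of 13654 probe sets were higher by that rule. Medians of all probe sets in the upper bins of level were 0.14 and 0.19. The lists' medians therefore lay near or below those of bright probe sets. All 9 tested activators of histone gene transcription were higher (6 of 9 after quantile normalization), with a median of 0.10 and 2 at an unadjusted limma p under 0.05. CASP8AP2, a component of the histone locus body, differed by 0.26 ± 0.07, and NPAT, the cyclin E-CDK2 substrate that drives histone transcription, by 0.20 ± 0.07 (limma adjusted p = 0.296 and 0.303). NFYB, a subunit of the CCAAT-binding factor, differed by 0.20 ± 0.09. After quantile normalization CASP8AP2, NPAT and NFYB were at 0.11, 0.13 and 0.08.

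Of 15 genes of histone mRNA 3' end processing and decay, 14 were higher (9 after quantile normalization), with a median of 0.18, and 8 had an unadjusted limma p under 0.05, all in the higher direction. LSM11, of the U7 snRNP, differed by 0.25 ± 0.06 (limma adjusted p = 0.296). The cleavage factors CPSF2 and CSTF2 differed by 0.31 ± 0.08 and 0.22 ± 0.06, each at a limma adjusted p of 0.296. After quantile normalization LSM11, CPSF2 and CSTF2 were at 0.17, 0.15 and 0.05. SLBP, which binds the stem-loop, had means of 11.64 and 11.39 and so differed by 0.24 ± 0.10 (limma adjusted p = 0.341), which was 0.05 after quantile normalization. Of 25 histone chaperones and assembly factors 20 were higher (11 after quantile normalization), with a median of 0.15 and 8 at an unadjusted limma p under 0.05. The H3-H4 and linker chaperone NASP differed by 0.26 ± 0.06 and the H2A.Z chaperone ANP32E by 0.45 ± 0.11. The CENP-A chaperone HJURP differed by 0.30 ± 0.08, and each of these genes had a limma adjusted p of 0.296. After quantile normalization NASP, ANP32E and HJURP were at 0.07, 0.25 and 0.11.

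Variant histones outside these clusters gave 6 of 8 higher (3 after quantile normalization), with a median of 0.08. MACROH2A1 differed by 0.22 ± 0.09, H2AZ2 by 0.22 ± 0.12 and CENPA by 0.10 ± 0.06 (limma adjusted p = 0.337, 0.417 and 0.475). After quantile normalization they were at 0.02, 0.03 and -0.02. Genes of DNA synthesis in S phase, when histone mRNA is made, were higher in 18 of 18 (10 after quantile normalization), with a median of 0.17 and 4 at an unadjusted limma p under 0.05. MCM3 differed by 0.25 ± 0.06, POLA1 by 0.27 ± 0.09 and MCM6 by 0.27 ± 0.10. After quantile normalization they were at 0.05, 0.14 and 0.10. SLBP and CCNE2 each stand on 2 of these lists.

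All 8 listed Hodgkin line genes, among them TNFRSF8 (CD30), lay above the level filter, as did 1 of 3 B cell genes (CD79A), 0 of 5 T and NK cell genes, 2 of 4 myeloid and 3 of 4 fibroblast genes. The Hodgkin line genes had means from 9.26 (CD40) to 12.7 (CCL17). CD79A (7.36), CSF1R (7.21), ITGAM (7.2), COL1A2 (7.11) and DCN (7.23) lay at or just above the filter of 7.11. COL1A1 was at 8.16, read by an _x_at probe set. Array medians lay between 7.10 and 7.15. Scrambled replicate 1 stood apart, with a 90th percentile of 9.28 against 9.45 to 9.57 and the spike-in dap at 10.19 against 8.06 to 8.67. It was the lowest array for 62.0% of probe sets at or above the 75th percentile of level (7.99), and for 5 of the 12 histone genes there. Without it 13 of the 24 histone genes were higher, with a median of 0.005. MiR-9 LNA replicate 2 was the lowest array for 6 of the 24, beside 10.6% of all tested probe sets. After quantile normalization it was lowest for 6 of the 12 bright histone genes, beside 11.7% of all bright probe sets. Scrambled replicate 1 was then highest for 5 of the 12, beside 25.1%. No histone gene passed the test between the LNAs. In bulk RNA, the share of cells in S phase and the histone mRNA per cell cannot be told apart.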

How the data were processed

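The authors deposited log2 values for 54675 probe sets on each of 6 arrays. The submitters' processing notes name affy and RMA, without versions or options, and no genome build applies. From these values 62 control probe sets were left out, and the 27307 with a mean at or above the median of the rest were tested with limma 3.58.1 in R 4.3.3 (lmFit, eBayes, two-sided, Benjamini-Hochberg over all tested, threshold 0.05). Gene symbols are those of GEO's platform annotation, in which 41091 non-control probe sets list 1 symbol, 1801 several and 11721 none, and all 50 members matched the GRCh38.p14 gene table. The members and lists were chosen with earlier results of these data known. Named members are the 3 of smallest p per class, the 5 of smallest p in each direction, the 5 of largest difference and the polyadenylated histone list, of which 6 of 7 were named on the array. In each pathway list, up to 3 genes of smallest p are named, and SLBP was added. H1-1, H2BC6, H2AC8, H2AC25, H4C11, the dim genes and the probe sets listing several genes were added after their values were seen. Promoter and microRNA sequences are from RefSeq, for 43 of 50 members. Replicate numbers come from the labels. Same-numbered arrays correlated in their deviations at 0.231, 0.193 and 0.634, differently numbered ones at -0.429 to 0.168. On that basis the numbers were taken to pair the arrays, which the labels do not state. The correlations come from the same values that the pairs and the replicate block then use. For replicates 1 and 2 they are weak, at 0.231 and 0.193 beside up to 0.168 for differently numbered arrays. On simulated arrays of this design limma called 26.5%, 66% and 89.5% of probe sets changed by a log2 of 0.3, 0.5 and 1. There 200 probe sets were changed by each amount and 26707 of 27307 were left unchanged. On the deposited arrays 0 of 27307 passed, with differences from -0.55 to 0.76 and a lowest limma adjusted p of 0.296. The simulated rates are therefore not used as the power of the test on the deposited arrays. The number of arrays limits the precision. Plots were made in Python 3.11.15 (matplotlib 3.10.9). Alternatives were quantile normalization, median centring, other level filters, a variance trend, array weights, the replicate block, other probe set rules and leaving out each array.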

Additional observations from a re-analysis of the deposited data

How the results depend on the processing

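No histone gene passed the limma adjusted p threshold between the LNAs under any of 16 alternative settings. At an unadjusted limma p under 0.05, genes lower with the miR-9 LNA numbered 2 after quantile normalization, with or without the replicate block, and 1 with the replicate block alone, with array weights, or with no level filter. The median difference became -0.04 after quantile normalization, with or without the block. With no level filter 19 of 50 genes were higher, and groups did not overlap for 1 gene higher and 7 lower (10.1% and 7.05% of all probe sets). With the filter at the 75th percentile 7 of 12 were higher, and 0 were lower without overlap. Without probe sets ending in s or x, 1 was lower without overlap. Pathway genes at an unadjusted p under 0.05 went from 22 to 2 after quantile normalization, 9 with the block added, and 14 with a variance trend. Quantile normalization, with or without the block, turned H2AC14 to -0.04, H2BC12L to -0.12 and H2BC9 to -0.05. Median centring turned H2BC21 to 0.008, H2BC5 to 0.01 and H3C8 to 0.02. Array weights turned H2AC17 to -0.01 and H2BC21 to 0.08, and averaging probe sets turned H2BC5 to 0.04. With each array left out in turn, unadjusted calls ranged from 0 to 2 higher (2 without miR-9 LNA replicate 2), genes without overlap from 0 to 3 higher and 2 to 5 lower, and pathway genes from 12 to 25. Single genes then ranged across 0: H1-7 from -0.09 to 0.005, H2AC14 from -0.02 to 0.11, H2AC17 from -0.02 to 0.12, H2AC6 from -0.05 to 0.29, H2BC12L from -0.06 to 0.19, H2BC21 from -0.08 to 0.06, H2BC5 from -0.05 to 0.03, H2BC9 from -0.004 to 0.11, H3C3 from -0.14 to 0.006, H3C8 from -0.04 to 0.03 and H4C8 from -0.005 to 0.10. Replicate 3 against replicate 1, whose alternatives were chosen after seeing the data, gave 2 genes higher and 1 lower after quantile normalization or with no filter, and 0 to 5 higher and 0 to 6 lower with arrays left out. With a variance trend 1 was called, H2AC6 in place of H2BC12L. The cause of these changes was not tested. Signal close to background limits the 26 genes below the filter, and 3 arrays a group limit all of them.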
